A study of Mus musculus with 25 samples.

Results

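The acute phase proteins described here are 10 genes: the serum amyloid A genes Saa1, Saa2, Saa3 and Saa4, lipocalin 2 (Lcn2), the orosomucoids Orm1, Orm2 and Orm3, haptoglobin (Hp) and hemopexin (Hpx). They were taken by symbol from a table of 37085 symbols, and all 10 were abundant enough to be tested. Their transcripts were counted in hepatocytes of C57BL/6 mice fed either a NASH diet, made to bring on fatty liver inflammation (non-alcoholic steatohepatitis), or normal diet (ND). The NASH-diet groups held 4, 3, 4, 3, 3 and 3 libraries after 1, 2, 3, 4, 5 and 6 weeks, and the ND group, at 0 weeks of NASH diet, held 5. The strain, the collagenase perfusion of the liver and the sort by FACS were common to all 7 groups. Diet composition, sorting gate and mouse age are not stated in the labels. Libraries are numbered in each group, but nothing states that each number is a different mouse, so the p-values below measure the spread between libraries, which may be technical.

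Acute phase proteins are plasma proteins whose output by hepatocytes changes within hours of infection, injury or inflammation. Interleukin 6, through the gp130 receptor and STAT3, and interleukin 1 and tumour necrosis factor, through NF-kB and C/EBP factors, drive the genes of the positive acute phase proteins. Serum amyloid A proteins travel on high density lipoprotein, lipocalin 2 binds bacterial siderophores, orosomucoids carry drugs and lipids, haptoglobin binds free haemoglobin and hemopexin binds free haem.

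The region before the start of the gene is shown for 4 of the genes, because Saa1 and Saa2 followed each other across the libraries and Lcn2 and Saa3 were both called in the test among the 7 groups. Each stretch holds the 250 bases before the start, read 5′ to 3′ on the strand of the gene, from RefSeq on mouse build GRCm38.p6. Capitals mark matches to the C/EBP-type letters TTGCNNAA on either strand. Saa1 is chr7:46742981-46743230, minus strand, Saa2 is chr7:46751583-46751832, plus strand, Saa3 is chr7:46715677-46715926, minus strand, and Lcn2 is chr2:32387740-32387989, minus strand.
Saa1: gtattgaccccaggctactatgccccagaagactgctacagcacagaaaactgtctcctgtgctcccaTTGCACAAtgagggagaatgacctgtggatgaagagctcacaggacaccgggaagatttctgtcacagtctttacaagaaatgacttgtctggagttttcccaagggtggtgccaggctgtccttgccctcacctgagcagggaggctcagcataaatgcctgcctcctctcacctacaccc
Saa2: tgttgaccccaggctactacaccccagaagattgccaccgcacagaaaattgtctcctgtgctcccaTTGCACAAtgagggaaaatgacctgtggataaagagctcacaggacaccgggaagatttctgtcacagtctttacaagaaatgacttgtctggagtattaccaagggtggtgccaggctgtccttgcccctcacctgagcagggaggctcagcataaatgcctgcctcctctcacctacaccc
Saa3: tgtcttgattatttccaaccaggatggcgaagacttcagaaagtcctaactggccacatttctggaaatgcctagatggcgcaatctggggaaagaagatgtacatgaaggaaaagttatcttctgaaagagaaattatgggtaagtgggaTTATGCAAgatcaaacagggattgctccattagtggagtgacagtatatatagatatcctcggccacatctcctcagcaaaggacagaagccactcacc
Lcn2: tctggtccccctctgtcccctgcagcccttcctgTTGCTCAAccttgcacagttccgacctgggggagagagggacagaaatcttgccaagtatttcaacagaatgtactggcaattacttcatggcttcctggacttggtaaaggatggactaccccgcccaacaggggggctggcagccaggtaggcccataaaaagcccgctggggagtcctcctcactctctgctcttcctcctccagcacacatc
Promoters, here 250 bases before to 50 after the start, were found for 8 of the 10 genes, the exceptions being Orm1 and Hp. All 8 held TTGCNNAA, against 10.8% of the 32851 promoters in the table. The STAT-type letters TTCNNNGAA and a kappaB-type motif (3 G, 2 bases of any kind, 3 T, 2 C) were in 0 of the 8, against 8.3% and 1.63% of all promoters. TATAAA was in 2 of the 8, Orm2 and Orm3, against 13.6%. Both strands were searched, 1 match may overlap another, and the letters were picked after these promoters had been seen. Only exact matches were counted, so near matches and other forms of these motifs were missed. A match is a description of the letters and shows no binding. The Saa1 and Saa2 promoters were 96.0% identical over their aligned bases.

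Libraries held between 5281143 and 10015751 counts, and 11869 symbols were tested. Levels are given as CPM, the usual depth-normalised unit of counts, scaled for library composition, and changes as log2 fold changes with their standard error. A gene was called when its Benjamini-Hochberg adjusted p in edgeR's quasi-likelihood test was under 0.05. Scaling by library size alone would move the median log2 fold change of all genes to 0.28 at week 5 and 0.26 at week 6, against -0.05 at both weeks with composition scaling, so changes are relative to the composition-scaled median. The 10 hepatocyte markers summed to 83585 to 88795 CPM at week 6 and 107377 to 114640 CPM on ND. Markers of other liver cells were present as well, and the lists of 12 markers each for Kupffer cells, monocytes, sinusoidal endothelial cells and stellate cells summed to more in every library of weeks 5 and 6 than in any ND library. The Kupffer cell list summed to 1435 to 1733 CPM at week 6 and 116 to 625 CPM on ND, and the sinusoidal endothelial list to 1053 to 1355 CPM and 143 to 569 CPM. The sums of the neutrophil list were 3.74 to 9.71 CPM at week 6 and 0.726 to 3.10 CPM on ND, and its defining marker Ly6g was at 0 in all 25 libraries. In bulk RNA, fewer cells of a type and less RNA per cell cannot be told apart.

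Lcn2 was the member with a higher level after NASH diet in nearly every library. Lipocalin 2 is a secreted iron-siderophore binding protein made by hepatocytes, macrophages and neutrophils. Its levels on ND were 2.18, 4.83, 3.59, 2.16 and 2.85 CPM, from 12 to 28 counts per library. They were 13.3, 6.95, 13.2 and 11.0 CPM at week 1, 12.4, 5.10 and 8.75 CPM at week 2, and 102, 18.3, 8.98 and 3.98 CPM at week 3. They were 11.8, 8.28 and 12.7 CPM at week 4, 5.16, 16.3 and 10.8 CPM at week 5, and 9.94, 10.4 and 14.1 CPM at week 6. Of the 20 NASH-diet libraries, 19 lay above the highest ND library, and the exception was library 4 of week 3. The ranges therefore did not overlap with ND at weeks 1, 2, 4, 5 and 6, and overlapped at week 3.

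The week 3 difference of Lcn2 was called, with a log2 fold change of 3.41 ± 0.70 (edgeR adjusted p = 0.0196). At the other weeks the log2 fold changes lay between 1.49 ± 0.79 (week 2, edgeR adjusted p = 0.467) and 1.87 ± 0.77 (week 6, edgeR adjusted p = 0.0792), and none was called. The week 3 call depended on single libraries, and limma voom did not make it (2.34, adjusted p = 0.320). Without library 1 of week 3, which stood at 102 CPM, the change was 1.71 and the edgeR adjusted p 0.0963. The adjusted p was 0.0607 without ND library 1, 0.0570 without ND library 4 and 0.0638 without ND library 5. When library 1 of week 3 was left out of the shared model, Lcn2 was called at week 1 (edgeR adjusted p = 0.0222), week 4 (0.0144), week 5 (0.00264) and week 6 (0.00260). Leaving out library 4 of week 3 also gave calls at week 5 (edgeR adjusted p = 0.0335) and week 6 (0.0331). All 6 weeks together against ND, a comparison chosen after the data had been seen, gave Lcn2 a log2 fold change of 2.03 ± 0.61 (edgeR adjusted p = 0.0239). Of all genes 20% were called there, 11.1% higher, and 2 of the 10 members had an unadjusted p under 0.05, against 32.5% of all genes. The Lcn2 call was lost without ND library 1, 4 or 5, at adjusted p of 0.0668, 0.0583 and 0.0588. With a score of 36 Kupffer, endothelial and stellate markers in the model, Lcn2 was not called at week 3 (log2 fold change 3.44, edgeR adjusted p = 0.0559) or for all 6 weeks together (2.11, 0.456). In week 3 library 1 the neutrophil list summed to 3.20 CPM, within the 1.86 to 5.98 CPM of that week's other libraries.

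**Figure D1:**
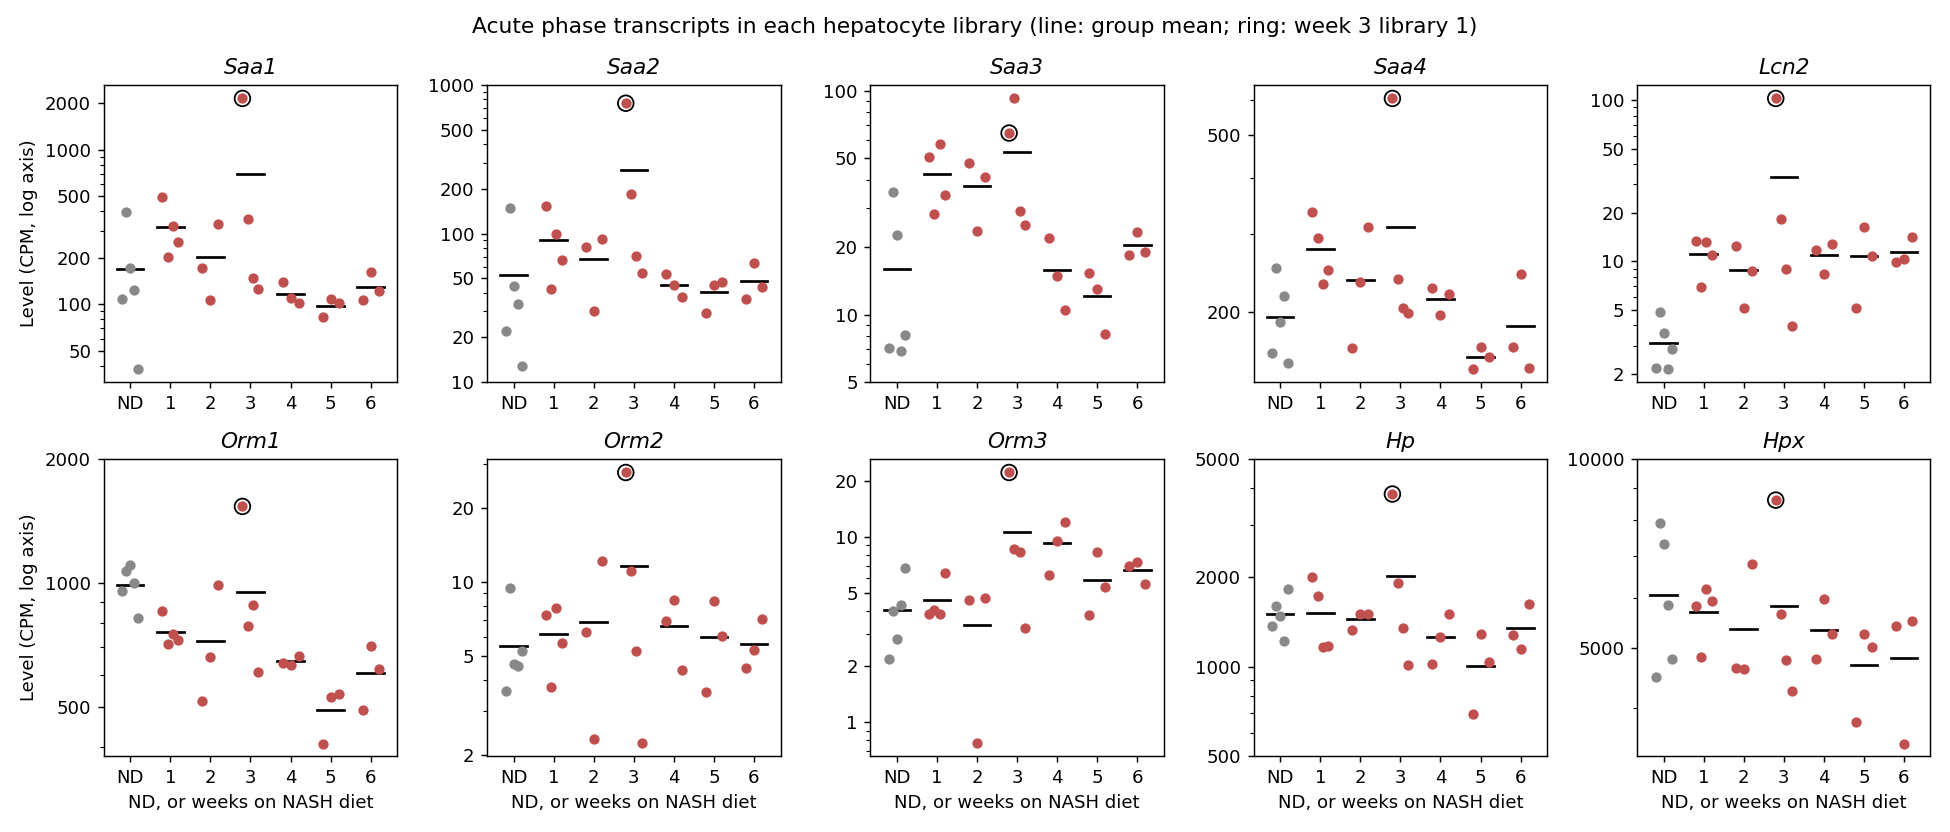
Level of each of the 10 acute phase transcripts in each of the 25 libraries, in CPM on a log axis, by group from ND to week 6; lines are group means and the ring marks week 3 library 1. Lcn2 lay above the highest ND library in 19 of 20 NASH-diet libraries, and Orm1 was below every ND library at weeks 4, 5 and 6.

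Saa1 and Saa2, the main hepatic serum amyloid A genes, were most abundant in a single week 3 library and low and even at weeks 4 to 6. Saa1 stood at 108, 399, 173, 123 and 38.4 CPM on ND, at 498, 203, 321 and 252 CPM at week 1, and at 172, 107 and 331 CPM at week 2. It stood at 2151, 358, 148 and 125 CPM at week 3, 139, 111 and 102 CPM at week 4, 82.5, 108 and 102 CPM at week 5, and 106, 161 and 122 CPM at week 6. The NASH-diet ranges overlapped the wide ND range at every week, and 2 of 20 libraries, 1 each at weeks 1 and 3, exceeded the highest ND library. At week 3 the log2 fold change was 2.04 ± 0.70 (edgeR adjusted p = 0.214), and 0.32 without library 1 of that week. Over ND and the 6 weeks the group SD of Saa1 was between 13.3 CPM at week 5 and 976 CPM at week 3, and 138 CPM on ND.

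Saa2 followed the same course. It stood at 22.1, 148, 44.6, 33.8 and 12.9 CPM on ND, 154, 42.2, 99.2 and 65.9 CPM at week 1, 81.7, 30.0 and 91.5 CPM at week 2, and 753, 186, 70.3 and 54.1 CPM at week 3. Its 9 libraries of weeks 4 to 6 lay between 29.3 and 63.7 CPM, all inside the ND range. The week 3 log2 fold change was 2.34 ± 0.71 (edgeR adjusted p = 0.161), and 0.98 without library 1 of that week. Without ND library 2, which held the highest ND level, it was 3.21 and was called (edgeR adjusted p = 0.0398). The last 300 transcript bases of Saa1 and Saa2, the stretch that 3′ end sequencing reads, were 94.3% identical, and 9.56% of the 50-base runs of Saa1 were also in Saa2. Reads from such runs cannot be assigned to 1 of them, so the split between both genes is uncertain.

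Saa3, the serum amyloid A gene also made by macrophages and adipose tissue in mice, stood at 7.08, 35.4, 22.8, 6.87 and 8.12 CPM on ND. It stood at 50.4, 28.2, 57.9 and 34.1 CPM at week 1, 47.5, 23.7 and 41.4 CPM at week 2, and 64.7, 93.2, 29.2 and 25.1 CPM at week 3. At week 4 it stood at 22.1, 14.9 and 10.5 CPM, at week 5 at 15.3, 13.0 and 8.21 CPM, and at week 6 at 18.6, 23.4 and 19.1 CPM. Each of the 11 libraries of weeks 1 to 3 was above 4 of the 5 or all ND libraries, and each of the 9 later ones lay within the ND range. The log2 fold change was 1.40 ± 0.47 at week 1 (edgeR adjusted p = 0.201), 1.22 ± 0.50 at week 2 (0.318) and 1.71 ± 0.47 at week 3 (0.0943), and none was called. Without ND library 2, the highest on ND, Saa3 was called at week 1 (log2 fold change 1.91, edgeR adjusted p = 0.0476) and week 3 (2.22, 0.0226). The Kupffer list summed to 1714 to 1860 CPM at week 5, when Saa3 had its lowest mean, and to 320 to 1261 CPM over weeks 1 to 3. The part of macrophages in the Saa3 levels was not tested.

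Saa4, the constitutive serum amyloid A gene, varied least of the 4 on ND, with a coefficient of variation of 20.7%. Its levels were 337, 295, 232 and 250 CPM at week 1, 605, 238, 205 and 199 CPM at week 3, and 162, 252, 190, 218 and 154 CPM on ND. Library 1 of week 3 stood apart from all others, and the remaining values of week 3 lay within the ND range. The week 3 log2 fold change was 0.68 ± 0.27 (edgeR adjusted p = 0.284), and 0.13 without that library. At weeks 2, 4, 5 and 6 the 12 libraries lay between 150 and 311 CPM.

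Orm1 was the member called lower than on ND. Orosomucoid 1, the alpha-1-acid glycoprotein, is classed as a positive acute phase protein. Its levels on ND were 958, 1072, 1104, 1003 and 821 CPM. They were 856, 711, 752 and 726 CPM at week 1, 517, 663 and 990 CPM at week 2, and 1534, 787, 883 and 610 CPM at week 3. They were 639, 634 and 667 CPM at week 4, 406, 530 and 537 CPM at week 5, and 492, 703 and 618 CPM at week 6. All 9 libraries of weeks 4 to 6 lay below the lowest ND library, and at week 3 library 1 lay above the highest. Orm1 fell by 1.01 ± 0.22 on the log2 scale at week 5 (edgeR adjusted p = 0.00102) and by 0.71 ± 0.22 at week 6 (0.0174). At week 4 the log2 fold change was -0.62 ± 0.22 (edgeR adjusted p = 0.0808), which was called without library 1 of week 3 (0.0279).

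The week 5 call of Orm1 held when any 1 library was left out, at log2 fold changes from -1.09 to -0.90. It was lost with the markers of other cells as a score in the model (-0.97, edgeR adjusted p = 0.576). That score left few genes of any kind called at week 5, where 35.4% of all genes were called without it. The score was 2.30 to 4.12 on ND and 5.64 to 5.95 at week 5, so the score and the diet cannot be told apart there. The week 6 call was lost without library 1 of week 6 (log2 fold change -0.59, edgeR adjusted p = 0.101), with scaling by library size alone (-0.42, 0.136) and with the marker score (-0.67, 0.603). With all 6 weeks together, the comparison added after seeing the data, Orm1 was lower than on ND by a log2 fold change of -0.54 ± 0.14 (edgeR adjusted p = 0.00967), where 8.87% of all genes were called lower, or -0.36 (0.0575) with library size alone and -0.51 (0.463) with the marker score. Hepatocyte markers summed to 78774 to 87875 CPM at week 5, against 107377 to 114640 CPM on ND. At week 5, 5 of the 10 were called lower and 0 higher, where 16.3% and 19.1% of all genes were. Those markers include acute phase genes such as Alb and Fgb, so their sum is no separate measure of hepatocyte content. Their part in the Orm1 result was not tested.

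Orm2 and Orm3 were sparse. Orm2 stood at 27.7, 11.1, 5.25 and 2.24 CPM at week 3 and 3.63, 9.49, 4.68, 4.58 and 5.26 CPM on ND, and its other 16 libraries lay between 2.32 and 12.1 CPM. Orm3 stood at 22.3, 8.61, 8.30 and 3.23 CPM at week 3, 6.21, 9.46 and 12.03 CPM at week 4, and 2.18, 3.97, 2.81, 4.31 and 6.80 CPM on ND. At both weeks the ranges of Orm3 overlapped those of ND. Neither gene was called at any week, the Orm3 log2 fold change being 1.41 ± 0.45 at week 3 (edgeR adjusted p = 0.175) and 1.22 ± 0.48 at week 4 (0.117). Orm3 was called at week 3 without library 4 of that week (log2 fold change 1.72, edgeR adjusted p = 0.0420). The fewest Orm3 counts in a library were 5, in library 2 of week 2. The last 300 bases of Orm1 and Orm2 transcripts were 97.7% identical and shared 58.6% of 50-base runs, and those of Orm1 and Orm3 were 91.3% identical. With the counts of all 3 orosomucoids summed, the log2 fold changes were -0.04 at week 3 and -0.60 at week 4, a sum made up mostly of counts assigned to Orm1, and the division of reads among the 3 genes is uncertain.

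Haptoglobin and hemopexin, the scavengers of haemoglobin and haem, were not called at any week. Hp stood at 1020, 1259 and 1499 CPM at week 4, 696, 1289 and 1034 CPM at week 5, 1283, 1149 and 1626 CPM at week 6, and 1366, 1597, 1477, 1224 and 1833 CPM on ND. Library 1 of week 5 was the lowest of all 25, library 1 of week 3 (3811 CPM) the highest, and each week overlapped ND. Hpx stood at 3809, 5264 and 5009 CPM at week 5, 5422, 3508 and 5515 CPM at week 6, and 4487, 7916, 7323, 5837 and 4788 CPM on ND, again with overlap. The log2 fold changes of Hp lay between -0.58 ± 0.31 at week 5 (edgeR adjusted p = 0.157) and 0.43 ± 0.28 at week 3 (0.511). Those of Hpx lay between -0.37 ± 0.22 at week 5 (edgeR adjusted p = 0.197) and -0.06 ± 0.20 at week 3 (0.919). Without library 1 of week 3 in the shared model, Hp was called lower at week 5.

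**Figure D2:**
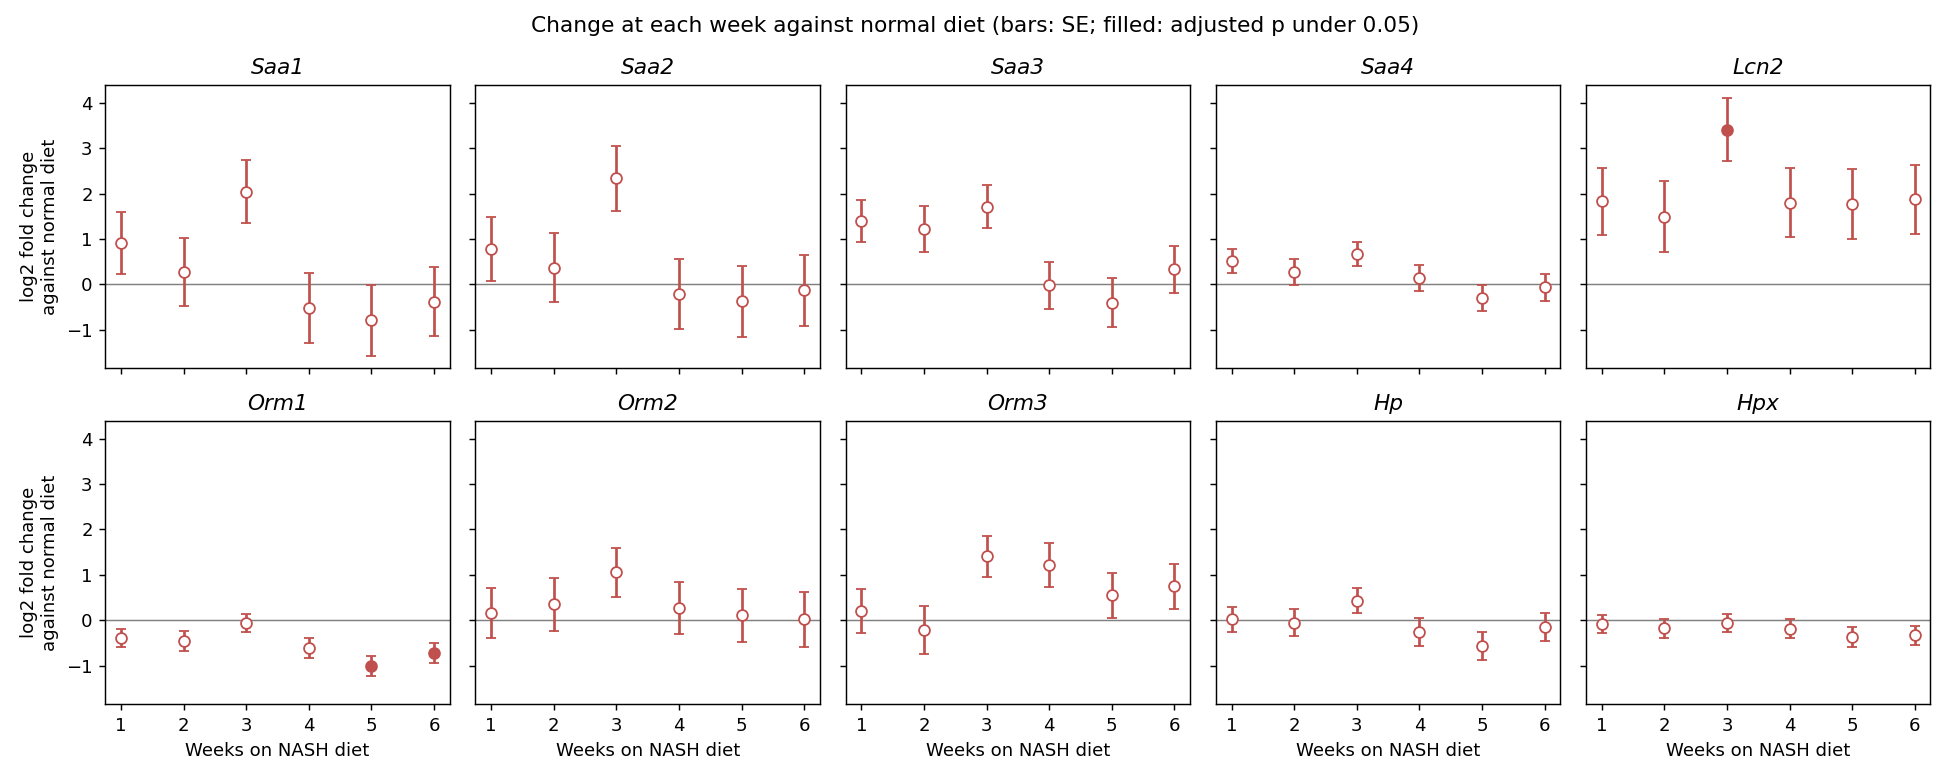
Log2 fold change of each of the 10 genes at weeks 1 to 6 of NASH diet against ND, with bars of 1 standard error; filled points have an edgeR adjusted p under 0.05. Lcn2 is filled at week 3 (3.41), and Orm1 at week 5 (-1.01) and week 6 (-0.71).

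Counted over the 10 genes, few calls were made in any week. At week 1, 0 members were called, with 1.2% of all genes tested called (0.219% higher, 0.977% lower), and 2 members had an unadjusted p under 0.05 against 10.4% of all genes. At week 2, 0 members were called, with 0.885% of all genes (0.227% higher, 0.657% lower), and again 2 had an unadjusted p under 0.05 against 12.2%. At week 3, 1 member was called higher, with 0.851% of all genes called (0.244% higher, 0.607% lower), and 6 members had an unadjusted p under 0.05 against 13.8%. Limma voom called 0 members at each of weeks 1 to 3, and DESeq2 called 0, 0 and 3, the last being Saa2, Saa3 and Lcn2. At week 4, 0 members were called while 8.28% of all genes were (5.43% higher, 2.86% lower), and 3 had an unadjusted p under 0.05 against 23.4%. DESeq2 and limma voom also called 0 members at week 4. At week 5, 1 member was called lower and 0 higher, where 35.4% of all genes were called (19.1% higher, 16.3% lower), and 2 members had an unadjusted p under 0.05 against 44.3%. At week 6, 1 member was called lower and 0 higher, where 26.8% of all genes were called (16.3% higher, 10.5% lower), and 2 had an unadjusted p under 0.05 against 37.4%. The members' share of calls at weeks 5 and 6 was thus below or near that of all genes.

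Ranges that did not overlap with ND gave a similar count. Lcn2 was the 1 member with all libraries above ND at week 1, where 1.58% of all genes were, at week 2 (3.13%), at week 4 (6.9%), at week 5 (20.1%) and at week 6 (16.1%). Orm1 was the 1 member with all libraries below ND at week 4, where 6.65% of all genes were, at week 5 (18.2%) and at week 6 (10.6%). At weeks 1, 2 and 3, 0 members lay wholly below ND, where 2.85%, 3.77% and 3.19% of all genes did, and at week 3, 0 lay wholly above, where 1.86% did. The median log2 fold change of the 10 genes was 0.35, 0.28, 1.23, -0.10, -0.37 and -0.10 at weeks 1 to 6, and that of all genes lay between -0.05 and 0.02. Without library 1 of week 3 the week 3 median was 0.22. With library size alone the medians at weeks 4 and 6 were 0.07 and 0.19, on the other side of 0.

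Any difference among the 7 groups was called for 5 of the 10 genes, where 29.9% of all genes were called. They were Orm1 (edgeR adjusted p = 0.00738), Saa3 (0.0124), Lcn2 (0.0230), Saa2 (0.0401) and Saa1 (0.0431). Orm1, Saa3 and Lcn2 were called with any 1 library left out. Limma voom called 2 of the 5, Saa3 and Orm1, and without an expression filter 3 were called, Saa3, Lcn2 and Orm1. With library size alone Saa3, Lcn2 and Orm3 were called, and with the marker score 0 of the 10, while 77 of all genes were called. Saa1 and Saa2 were not robust to this, since leaving out 18 and 16 of the 25 libraries, 1 at a time, lost the call, with adjusted p up to 0.192 for Saa1 and 0.468 for Saa2, both without library 1 of week 3. Saa4 (0.117), Orm3 (0.0682), Hp (0.246), Orm2 (0.606) and Hpx (0.696) were not called.

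Of the 4 serum amyloid A genes, 3 were called lower late in the diet than early. Weeks 5 and 6 against weeks 1 to 3 gave 4 members called lower and 0 higher, where 38.9% of all genes were called, 18.4% lower and 20.5% higher, and 6 members had an unadjusted p under 0.05 against 47.2% of all genes. Saa1 fell by 1.66 ± 0.56 on the log2 scale (edgeR adjusted p = 0.0251), Saa3 by 1.48 ± 0.37 (0.00361), Saa4 by 0.67 ± 0.21 (0.0140) and Orm1 by 0.57 ± 0.15 (0.00493). Saa3 lay between 8.21 and 23.4 CPM in the 6 late libraries and between 23.7 and 93.2 CPM in the 11 early ones, with no overlap, as for 2% of all genes, and 0 members lay wholly above, where 8.6% of all genes did. Saa1 lay between 82.5 and 161 CPM late and between 107 and 2151 CPM early, with overlap.

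Saa2 had a log2 fold change of -1.42 ± 0.57 (edgeR adjusted p = 0.0542), Hp of -0.50 ± 0.21 (0.0730) and Lcn2 of -0.42 ± 0.48 (0.524), and none of them was called. Saa2 was called without ND library 2 (edgeR adjusted p = 0.0302), week 1 library 2 (0.0486), week 2 library 2 (0.0472), week 3 library 3 (0.0350) or week 3 library 4 (0.0296), and Hp without week 3 library 3 (0.0469) or 4 (0.0209). The 4 called genes were still called without library 1 of week 3, with Saa1 at -1.09 (edgeR adjusted p = 0.0370), Saa3 at -1.44 (0.00597), Saa4 at -0.49 (0.00570) and Orm1 at -0.46 (0.00420). The Saa1 call was lost without library 1 of week 5 (0.0566), library 1 of week 6 (0.0625) or library 3 of week 6 (0.0514). With scaling by library size alone, Saa3 was the 1 member still called (edgeR adjusted p = 0.0122), while Saa1 (0.0504), Saa4 (0.0890) and Orm1 (0.0641) were not. A mean log2 level of Kupffer, endothelial and stellate markers was 5.39 to 5.95 over weeks 5 and 6 and 3.41 to 4.92 over weeks 1 to 3. With that score in the model 0 members and 0 of all genes were called between late and early weeks, so the score and the weeks cannot be told apart.

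**Figure D3:**
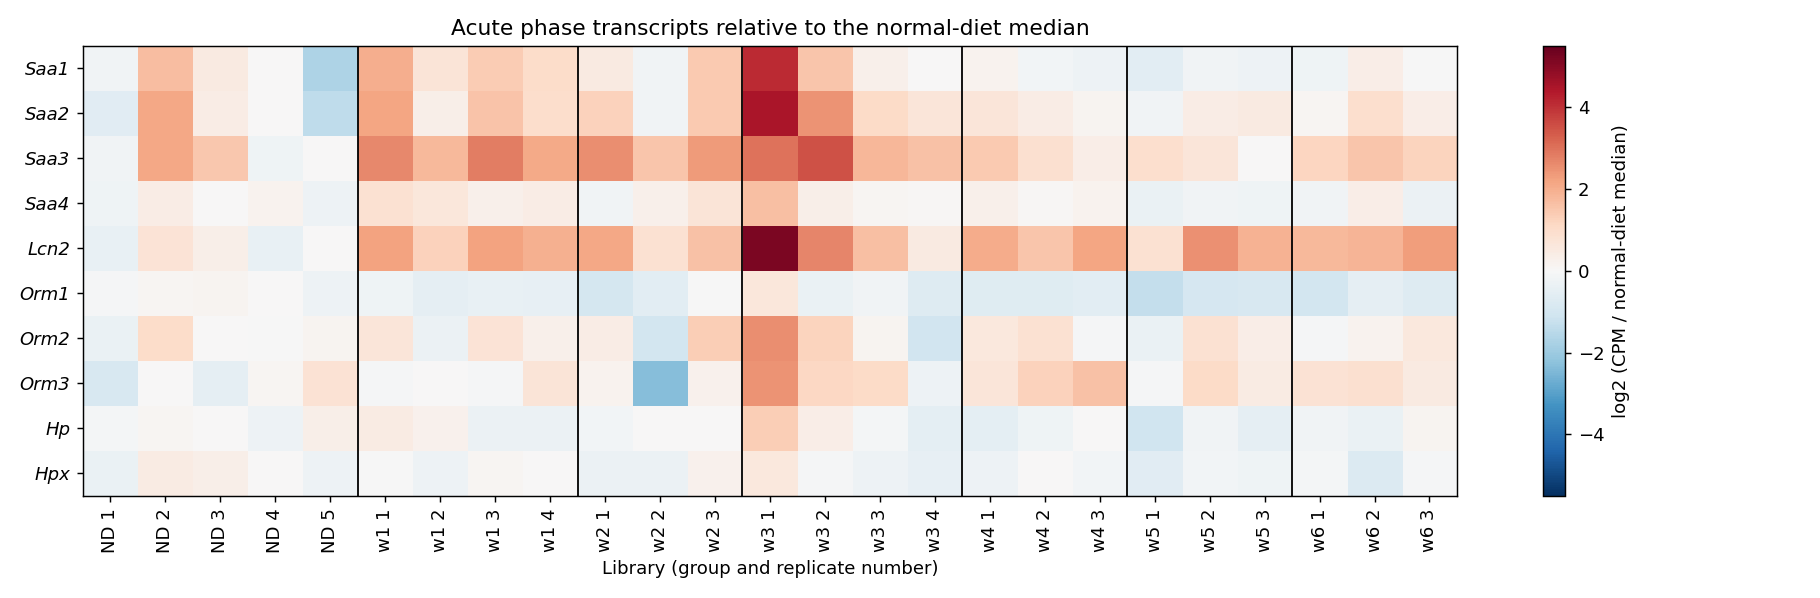
Level of each of the 10 genes in each library relative to the ND median, as log2 ratio, with libraries ordered from ND to week 6 and lines between groups. Saa3 and Lcn2 are above the ND median in every library of weeks 1 to 3, and week 3 library 1 holds the highest value of 9 of the 10 genes.

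Library 1 of week 3 held the highest level of all 25 libraries for 9 of the 10 genes, Saa3 being the exception at rank 2. Relative to the median of the other 3 libraries of its week, it held 14.6 times the level of Saa1, 11.4 times that of Lcn2, 10.7 times that of Saa2 and 5.28 times that of Orm2. The ratios of the others were 2.96 for Saa4, 2.82 for Hp, 2.68 for Orm3, 2.22 for Saa3, 1.95 for Orm1 and 1.80 for Hpx. Among the 6332 genes averaging 10 CPM or more, Saa1, Lcn2 and Saa2 had the 3 highest ratios, and the median ratio was 1.01. A ratio of at least 2 was held by 74 genes, and 90 genes had a ratio of at most 0.5. The next was Mt2, a metallothionein induced in the acute phase, at 8.45. After it came Egfros (8.39), Mup8 (7.82), Cdkn1a (6.77) and Zbtb16 (6.39), which are on none of the acute phase lists used here. The 10 genes took 1.66% of the counts of this library and between 0.623% and 0.923% of those of the other 3.

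Of the 20 other positive acute phase genes averaging 10 CPM or more, 17 were higher in library 1 than in all 3 other week 3 libraries, 1 was lower than all 3 and 2 lay between them, with a median ratio of 1.71. Fgl1, a fibrinogen-like hepatokine, stood at 954 CPM there and 183 to 281 CPM in the other week 3 libraries, and Lbp, the lipopolysaccharide binding protein, at 201 and 49.3 to 75.8 CPM. The fibrinogen chains Fga, Fgb and Fgg had ratios of 1.79, 1.68 and 1.66. C3 (1.27), Crp, the C-reactive protein (1.11), Pigr (0.94) and Agt (0.93) had ratios nearer to 1. Of 12 cytokine, receptor and kinase genes, 7 were above and 2 below all 3 others, with a median ratio of 1.14, and of 13 transcription factor and feedback genes, 6 were above and 4 below, with a median of 1.03. Il1r1, the interleukin 1 receptor, had a ratio of 2.29, Cebpb of 2.12 and Stat3 of 1.73, while Socs3, the feedback inhibitor of gp130 signalling, was lower at 0.46 and Atf3, a stress-induced factor, at 0.13. Of 14 negative acute phase genes, 1 was above and 6 below all 3 others, with ratios between 0.50 and 1.15 and a median of 0.96. For all genes averaging 10 CPM or more the median ratio was 1.01. How many of all genes lay above or below all 3 others was not counted, so the counts of these lists are a description. The marker score of library 1, 3.66, was the lowest of week 3, where the others had 3.97 to 4.54. The highest ND library for Saa1, Saa2, Saa3, Saa4, Lcn2, Orm2 and Hpx was library 2.

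**Figure D4:**
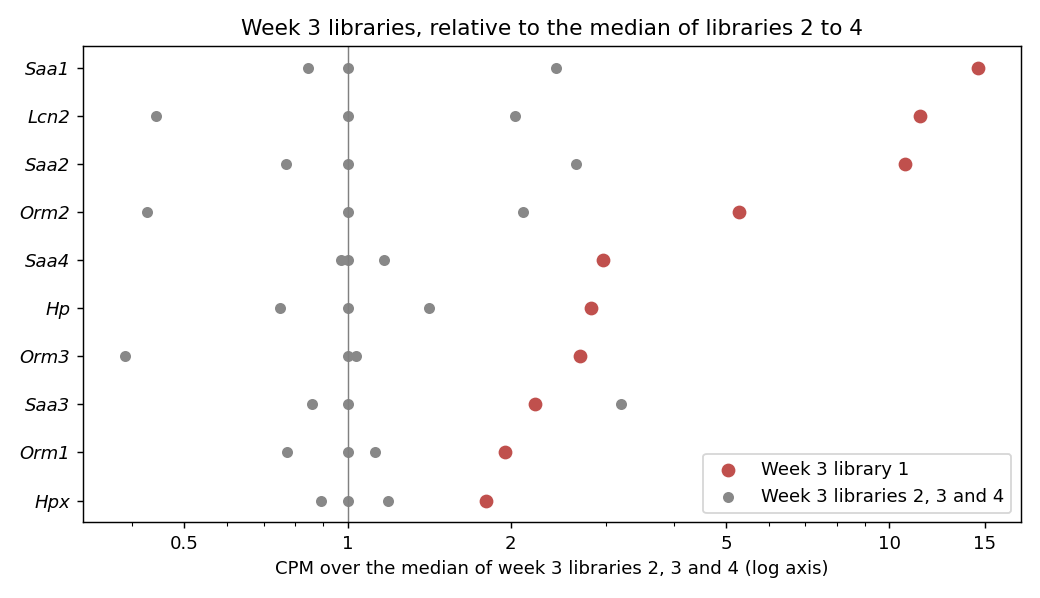
Level of each of the 10 genes in the 4 libraries of week 3, relative to the median of libraries 2, 3 and 4, on a log axis. Library 1 has ratios from 1.80 for Hpx to 14.6 for Saa1, and it lies to the right of the other 3 for every gene but Saa3.

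After the group means were subtracted, several of the 10 genes were still high or low in the same libraries of the 25, which share the sort and the library preparation and differ in depth and in markers of other cells. Saa1 and Saa2 had a Pearson r of 0.97, or 0.96 without library 1 of week 3, and these genes can share reads. Lcn2 and Orm2 had an r of 0.86, or 0.81 without that library, Saa4 and Orm1 of 0.85 (0.76), and Saa1 and Hp of 0.56 (0.29). Saa3 was loosely tied to Hp, with an r of 0.22 (0.15). The non-member genes most like each of 5 members were picked from 6324 genes by that r. In each bracket below the second value is the r without library 1 of week 3. The genes for Saa1 were Tmem176b (0.84, 0.75), Lrg1 (0.82, 0.71), Nucb2 (0.82, 0.74) and Hspa4l (0.82, 0.73). For Lcn2 they were Tmem176b (0.83, 0.72), Tmem176a (0.80, 0.67), Prg4 (0.76, 0.61) and Fgl1 (0.75, 0.52). For Orm2 they were Tmem176b (0.82, 0.74), Map7d1 (0.79, 0.74), Tmem176a (0.78, 0.68) and Itih4 (0.77, 0.67). For Hp they were Lbp (0.92, 0.86), Serpina3n (0.91, 0.89), Hc (0.90, 0.86) and Wfdc21 (0.86, 0.78). For Hpx they were Steap4 (0.84, 0.80), Fgl1 (0.80, 0.75), Tmem176b (0.78, 0.71) and Tnfrsf1b (0.76, 0.75).

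The wider acute phase programme was compared by lists. Of 23 other positive acute phase genes tested, 2 were called higher and 11 lower at week 5, and 3 higher and 8 lower at week 6. Of all genes 19.1% were called higher and 16.3% lower at week 5, and 16.3% higher and 10.5% lower at week 6. At weeks 1, 2 and 3 edgeR called 0, where 1.2%, 0.885% and 0.851% of all genes were called. At an unadjusted p under 0.05 were 5, 3 and 6, against 10.4%, 12.2% and 13.8% of all genes. No other tool was run on the lists. Their median log2 fold change at week 5 was -0.55, against -0.05 for all genes. C3, the central complement component, stood at 1383, 1606 and 1484 CPM at week 5 and at 2937, 2716, 2313, 2683 and 3876 CPM on ND, with no overlap, and fell by 0.96 ± 0.18 (edgeR adjusted p = 0.000196). Apcs, serum amyloid P, fell by 1.37 ± 0.26 (edgeR adjusted p = 0.000370), Pigr, the polymeric immunoglobulin receptor, by 0.77 ± 0.16 (0.000702) and Agt, angiotensinogen, by 0.55 ± 0.12 (0.000802). Il1rn, the interleukin 1 receptor antagonist, was higher, at 17.1 ± 1.02 CPM at week 5 (SD, n = 3) and 2.53 ± 1.40 CPM on ND (SD, n = 5), a log2 fold change of 2.69 ± 0.48 by edgeR (adjusted p = 0.000214). Serpina3m, a serine protease inhibitor, was called higher at week 4 (0.54 ± 0.15, edgeR adjusted p = 0.0289) and not at week 5. The Kupffer list averaged 1805 CPM at week 5 and 375 CPM on ND. The hepatocyte marker sum, which includes Fgb of this list, averaged 83266 CPM at week 5 and 112204 CPM on ND. The part of either in the rises and falls of this list was not tested.

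Of 14 negative acute phase genes, plasma proteins whose output drops in inflammation, 10 were called lower and 0 higher at week 5 and again at week 6, where 16.3% and 10.5% of all genes were called lower. The hepatocyte marker sum averaged 83266 CPM at week 5, 85756 CPM at week 6 and 112204 CPM on ND. That sum includes Alb, Ttr and Apoa1 of this list and Fgb of the other positive list, so it is not independent of these counts. Its part in them was not tested. At weeks 1, 2 and 3 edgeR called 0, where 1.2%, 0.885% and 0.851% of all genes were called. At an unadjusted p under 0.05 were 4, 1 and 5, against 10.4%, 12.2% and 13.8% of all genes. Fetub, fetuin B, fell by 0.90 ± 0.14 at week 5 (edgeR adjusted p = 4.25e-05), Apoa1, the main apolipoprotein of high density lipoprotein, by 0.73 ± 0.14 (0.000254), and Ttr, transthyretin, by 0.71 ± 0.12 (6.89e-05). Ahsg, fetuin A, fell by 0.60 ± 0.14 (edgeR adjusted p = 0.00192), Igf1, the growth factor, by 0.59 ± 0.13 (0.00115) and F12, coagulation factor XII, by 0.55 ± 0.12 (0.000744). The median log2 fold change of the negative acute phase genes at week 5 was -0.54, on the same side as that of the other positive ones.

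**Figure D5:**
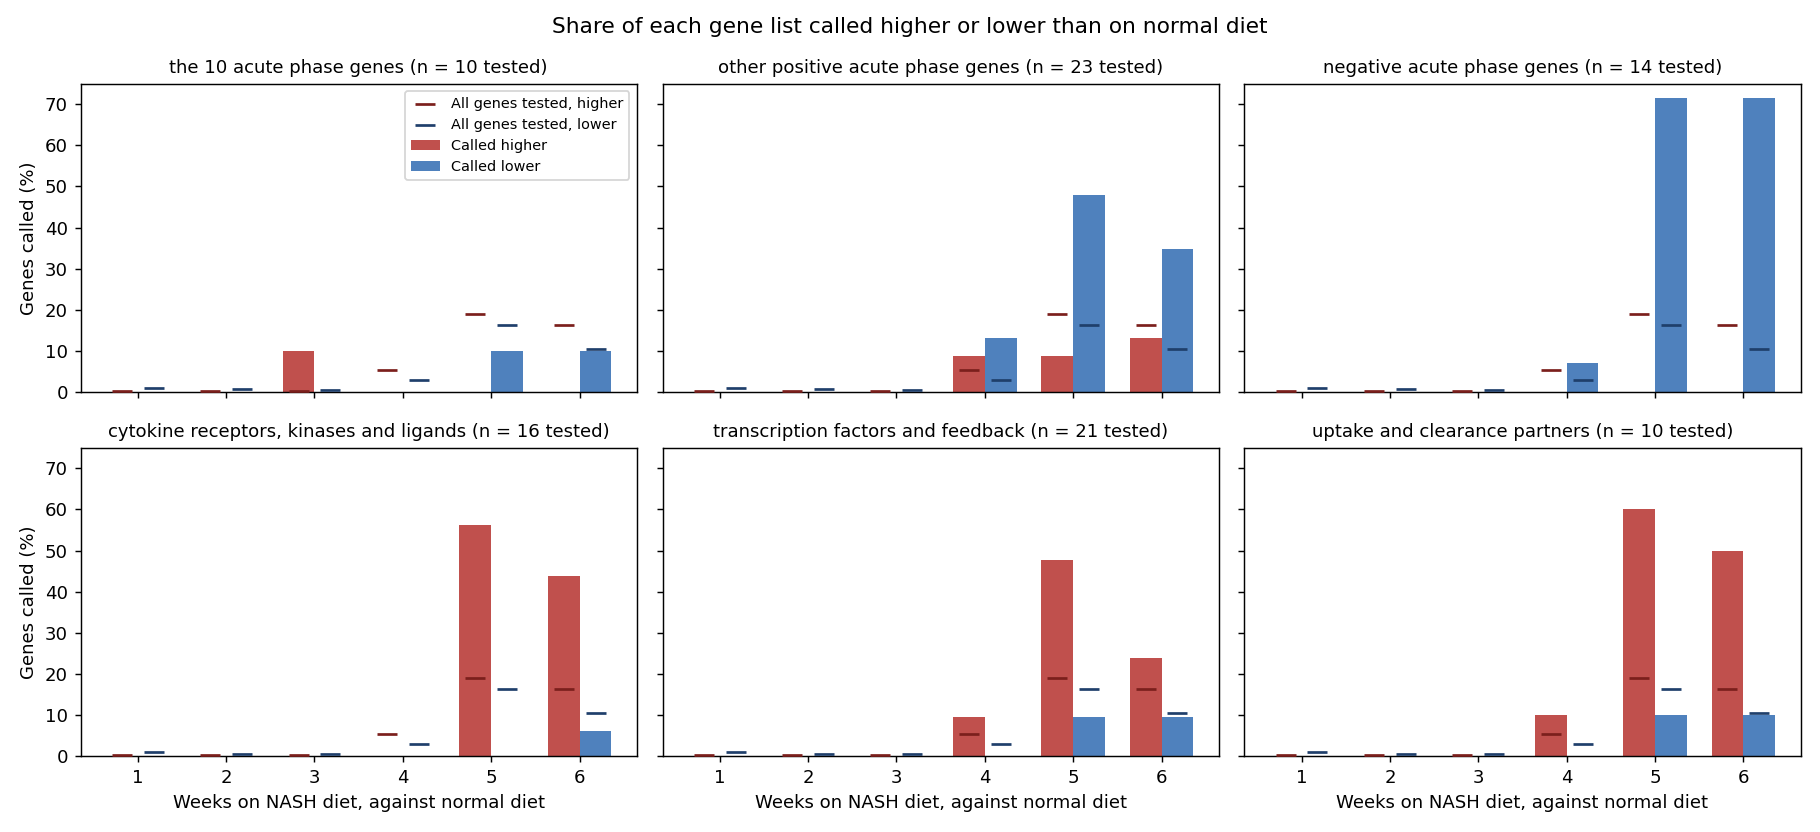
Share of each gene list called higher (red) or lower (blue) than on ND at weeks 1 to 6, with dashes for the share of all genes tested. At week 5, 1 of 10 acute phase members, 11 of 23 other positive and 10 of 14 negative acute phase genes were called lower, where 16.3% of all genes were.

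Some genes of the cytokine pathways upstream of the acute phase were called higher late in the diet, and others were not. Of 16 cytokine, receptor and kinase genes tested, 9 were called higher and 0 lower at week 5, and 7 higher and 1 lower at week 6, where 19.1% and 16.3% of all genes were called higher. Il6st, which encodes gp130, had a log2 fold change of 0.66 ± 0.14 at week 5 (edgeR adjusted p = 0.000554) and Jak1, its kinase, of 0.67 ± 0.11 (8.20e-05). Il1b stood at 41.9 ± 25.5 CPM at week 5 (SD, n = 3) and 6.90 ± 5.19 CPM on ND (SD, n = 5), a change of 2.55 ± 0.56 by edgeR (adjusted p = 0.00137). Il1a rose by 2.68 ± 0.53 (edgeR adjusted p = 0.000463) and Tnf by 3.90 ± 0.87 (0.00114), with 106 Tnf counts in all at week 5 and 7 on ND. Il6 itself had 12 counts in all at week 5 and 3 on ND, and was not tested. Ghr, the growth hormone receptor, was the 1 gene called lower at week 6 (-0.42 ± 0.13, edgeR adjusted p = 0.0218). Il1a, Il1b and Tnf are products of macrophages, and the Kupffer list, led by Cd5l and C1qb, had 12 of 12 markers called higher at week 5, and the part of these cells in the result was not tested.

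Of 21 transcription factor and feedback genes, 10 were called higher and 2 lower at week 5, where 19.1% and 16.3% of all genes were. Cebpd, the inducible C/EBP factor of the acute phase, rose by 1.70 ± 0.28 (edgeR adjusted p = 6.12e-05), Nfkbia by 0.94 ± 0.18 (0.000278), Nfkbiz by 1.85 ± 0.37 (0.000454), Tnfaip3 by 2.63 ± 0.52 (0.000386) and Nfkbie by 1.08 ± 0.34 (0.0150). All but the first are regulators of NF-kB. Cebpa, the constitutive hepatocyte C/EBP factor, fell by 0.54 ± 0.12 (edgeR adjusted p = 0.00108). Of 10 genes on a list of uptake and clearance partners, 6 were called higher and 1 lower at week 5, where 19.1% and 16.3% of all genes were. The list also held the innate receptors Tlr4 and Tlr2 and hepsin, so its count is no measure of clearance. Tlr4, an innate receptor, rose by 2.85 ± 0.48 (edgeR adjusted p = 7.20e-05) and Tlr2 by 1.69 ± 0.48 (0.00815), Slc22a17, a lipocalin 2 receptor, by 2.16 ± 0.50 (0.00148), and Hmox1, which degrades haem, by 1.49 ± 0.39 (0.00410). Hpn, hepsin, fell by 0.52 ± 0.09 (edgeR adjusted p = 0.000105). The Kupffer list averaged 1805 CPM at week 5 and 375 CPM on ND, and the monocyte and macrophage list 439 CPM at week 5 and 78.5 CPM on ND. The part of these cells in the counts of both lists was not tested, and Tlr4, Tlr2 and Hmox1 are also expressed by macrophages. The lists were chosen with results of these data known, so their counts are a description.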

How the data were processed

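RNA of sorted mouse hepatocytes was sequenced at the 3′ end (QuantSeq 3′ mRNA-Seq FWD). The deposited values are raw counts per gene symbol and library, made by the authors with FastQC, cutadapt and STAR 2.7.1a on GRCm39, per the submitters' processing notes. Neither the counting program nor its gene annotation is named in the labels. Promoters and transcript ends came from an older build, GRCm38.p6, matched by symbol, so positions are on that build and no positions of the counts are used.

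Symbols that passed edgeR's expression filter (11869 of 37085) were fitted with edgeR 4.0.16 in R 4.3.3, using a quasi-likelihood model with 7 groups, composition (TMM) factors and 18 residual degrees of freedom. Each week was compared with ND, weeks 5 and 6 with weeks 1 to 3, and all 7 groups with each other, with Benjamini-Hochberg adjustment over all genes tested. Standard errors were taken from the fold change and its F statistic. Alternatives were DESeq2 1.42.0, limma 3.58.1 (voom), library size alone, other filters, fits of only the groups compared, a replicate block, a score of 36 markers of other cells, summed paralogs and each library left out. The model was tested on simulated counts for week 6 against ND. It recovered 58.8% of 2-fold and 90.9% of 4-fold changes and called 0.079% of unchanged genes. A gene that was not called may therefore still have changed 2-fold, or by more where its libraries vary widely. At week 3 Saa1 was 4.12-fold and Saa2 5.07-fold the ND level, and neither was called. The recovery was not measured for the members themselves. Libraries of 5281143 to 10015751 counts leave genes such as Orm3, with as few as 5 counts, imprecise.

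The text names all 10 members, up to 6 called genes per pathway list with the smallest p of the 7-group test, the 4 genes most like each of 5 members, and the leading markers of lists that moved. Il6 was named outside that rule. Genes named for library 1 of week 3 beyond the members were chosen after their values were seen. The members and lists were chosen with earlier results of these data known.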

Additional observations from a re-analysis of the deposited data

Results flagged for a closer look

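Single libraries stood apart from the others of their group at the high end. Library 1 of week 3 did so for Saa1 (2151 CPM), Saa4 (605.2 CPM) and Lcn2 (102.2 CPM), and library 4 of week 1 did so for Orm3 (6.422 CPM). Library 2 of ND stood apart for Saa2 (147.9 CPM) and Orm2 (9.495 CPM). Dixon's test was run on 30 groups of 4 or 5 values and 6 were past the 95% critical value, where chance flags about 1 in 20 groups, and the 10 genes are not independent of each other.

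Levels in the NASH-diet libraries differed between weeks 5 and 6 and weeks 1 to 3 for 4 genes. The log2 differences were -1.66 for Saa1, -1.48 for Saa3, -0.67 for Saa4 and -0.57 for Orm1, each with an edgeR adjusted p under 0.05. With library size alone Saa3 was the 1 gene of the 4 still called, and with the marker score in the model 0 were, so the score and the weeks cannot be told apart.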

How the results depend on the processing

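Of the values of 32 member results under alternatives, 998 kept direction and side of the threshold, 41 passed it newly, 86 no longer passed it and 2 reversed. With the 3 orosomucoids summed, the reversed log2 values were -0.037 at week 3 and -0.60 at week 4, in place of Orm3 alone. Members called with DESeq2 were 3 at week 3, 2 at week 5 and 2 at week 6. Limma voom called 0 at week 3, 2 for any difference among the 7 groups and 1 for all 6 weeks together. Library size alone gave 2 at week 5, 1 for weeks 5 and 6 against weeks 1 to 3, 3 for any difference and 1 for all 6 weeks together. Fits of only the groups compared gave 1, 0, 2, 2 and 2 at weeks 1, 3, 4, 5 and 6; they were not made for any difference or all 6 weeks together. With no filter, 3 were called for any difference. The marker score as a covariate left 0 members called at weeks 3, 5 and 6, for weeks 5 and 6 against weeks 1 to 3, for any difference and for all 6 weeks together, while it left 17 of all genes at week 5. Without ND libraries 1 and 5 together, 0 were called at week 3, 2 for any difference and 1 for all 6 weeks together. The cause of these changes was not tested. Except with the marker score, the share of all genes called under each alternative, here and below, is not given. Those counts therefore describe the members alone and do not compare them with all genes.

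With each library left out in turn, members called ranged from 0 to 1 at week 1, 0 to 0 at week 2, 0 to 3 at week 3, 0 to 2 at week 4, 1 to 3 at week 5 and 0 to 2 at week 6. They ranged from 3 to 6 for weeks 5 and 6 against weeks 1 to 3, from 3 to 6 for any difference and from 1 to 3 for all 6 weeks together.

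With a replicate block, members called were 0 at week 3, 6 for weeks 5 and 6 against weeks 1 to 3, 2 for any difference and 1 for all 6 weeks together. Of 66 same-numbered pairs, 21 had a correlation over 0.1, and the highest was 0.556. The median was 0.022 for the same number and -0.009 for other numbers, and 5 of 25 libraries correlated best with their own number. The labels do not state what a number stands for, and a shared origin of same-numbered libraries was not tested.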
